A study of Homo sapiens with 12 samples.

Results

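The dual-specificity phosphatases of the MAP kinases (MKPs) were followed in the human U937 line, which has features of monocytes. The cells were given JS-K, a diazeniumdiolate prodrug of nitric oxide, for 90 min, 4 h or 24 h, or the DMSO vehicle. Each of the 4 groups held 3 arrays, which the titles call biological replicates. The genes were DUSP1, DUSP2, DUSP4, DUSP5, DUSP6, DUSP7, DUSP8, DUSP10 and DUSP16, taken by symbol. They were 9 of the 19775 genes measured, and 21 of the 54675 probe sets on the array were listed with 1 of these symbols alone. Each gene was read by whichever of its probe sets had the highest average level, and the other 12 probe sets are described after it. No JS-K dose and no duration of the vehicle exposure were given, and all JS-K times were set against the same vehicle arrays. Time in culture and JS-K therefore cannot be told apart, and the 3 comparisons with vehicle share their control arrays.

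MAP kinases are switched on when a kinase phosphorylates a threonine and a tyrosine of their activation loop, and the MKPs switch them off by removing both phosphates. The nuclear MKPs DUSP1, DUSP2, DUSP4 and DUSP5 are classic immediate early or early genes, transcribed within minutes of growth factor, cytokine or stress signals. DUSP6 and DUSP7 are cytoplasmic and prefer ERK, while DUSP8, DUSP10 and DUSP16 prefer JNK and p38, the stress-activated kinases. Many of these genes are transcribed in response to the kinase they inactivate and so form feedback loops, which in monocytes and macrophages limit the production of cytokines.

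Levels are the deposited log2 values, and 1 unit is a 2-fold change. They are compared between groups for 1 probe set and never between genes, since probe sets differ in brightness. A level under 4 was treated as low signal, a mark that 51.7% of all genes lay under on average. Where a difference has an end there, the fold is better read as a lower bound. Differences are given ± SE of the limma fit (n = 3 and 3) with a p-value adjusted over all 19775 genes, and a gene was called where this was under 0.05. The p-values set each difference against the spread between these arrays within the groups, which all groups share. In RNA from whole cultures, a change in every cell and a larger change in some of the cells cannot be told apart.

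The arrays did not differ in JS-K alone. Poly-A spikes, control transcripts added before labelling, lay at a mean of 3.04 ± 0.05 on the vehicle arrays and 3.08 ± 0.06 at 90 min, but at 7.02 ± 0.15 at 4 h and 8.47 ± 0.05 at 24 h (SD, n = 3). Comparisons of 4 h or 24 h with the earlier groups hence also compare arrays with and without this signal, and the 2 differences cannot be told apart. Several other controls stood apart at 24 h alone. Hybridization spikes averaged 11.70 ± 0.04 at 24 h and 9.96 to 10.21 in the other groups, and 28S ribosomal RNA probe sets 8.03 ± 0.16 and 6.37 to 6.59. The 3′ minus 5′ difference of GAPDH, a sign of RNA quality, was 0.13 ± 0.01 at 24 h and −0.06 to 0.01 in the other groups. Differences between 24 h and any other group share this split too, and its part in them was not tested. The same measure of ACTB was raised at 4 h as well. It averaged 0.80 in vehicle, 0.83 at 90 min, 0.96 ± 0.17 at 4 h and 0.96 ± 0.04 at 24 h. Its 4 h values ran from 0.81 to 1.15, the highest on replicate 2, and the part of ACTB in the DUSP differences was not tested either. Vehicle and 90 min arrays had the poly-A spikes at about the same level. Replicate 2 at 4 h stood apart, with the highest array median (3.10, against 2.84 to 2.99 on the others) and the lowest upper quartile (6.20), and DUSP results that it moves are given without it. Of 8 measured myeloid markers, 6 had a mean of at least 4, among them LYZ, PTPRC and ANPEP, while MPO (2.34 to 2.51) and FCGR1A (2.20 to 2.29) were low on every array. All measured T cell, erythroid and epithelial markers lay under 4. PAX5, a B cell factor gene, averaged 5.99 in vehicle and 4.35 at 24 h, and the summed level of the 3 measured B cell markers ranged from 11.77 to 11.97 in vehicle and from 9.83 to 11.15 at 24 h. The summed level of the myeloid markers went from 59.34 to 59.78 in vehicle to 64.89 to 66.07 at 24 h. Of these 8 markers, 5 were called higher at 24 h and 1 lower, against 17.8% and 18.9% of all genes. The lower marker was CSF3R, which averaged 7.82 in vehicle and 7.25 at 24 h. Whether these shifts bear on the DUSP genes was not tested.

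Across the 4 groups, 7 of the 9 genes differed by the moderated F test, against 38.1% of all genes, and DUSP4 and DUSP8 did not pass it. Their changes fell into 4 shapes. DUSP1, DUSP5 and DUSP10 were high by 90 min and still high at 24 h. DUSP16 rose and DUSP2 and DUSP7 fell later, between 90 min and 4 h. DUSP6 moved little, with its lowest level at 90 min.

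**Figure D1:**
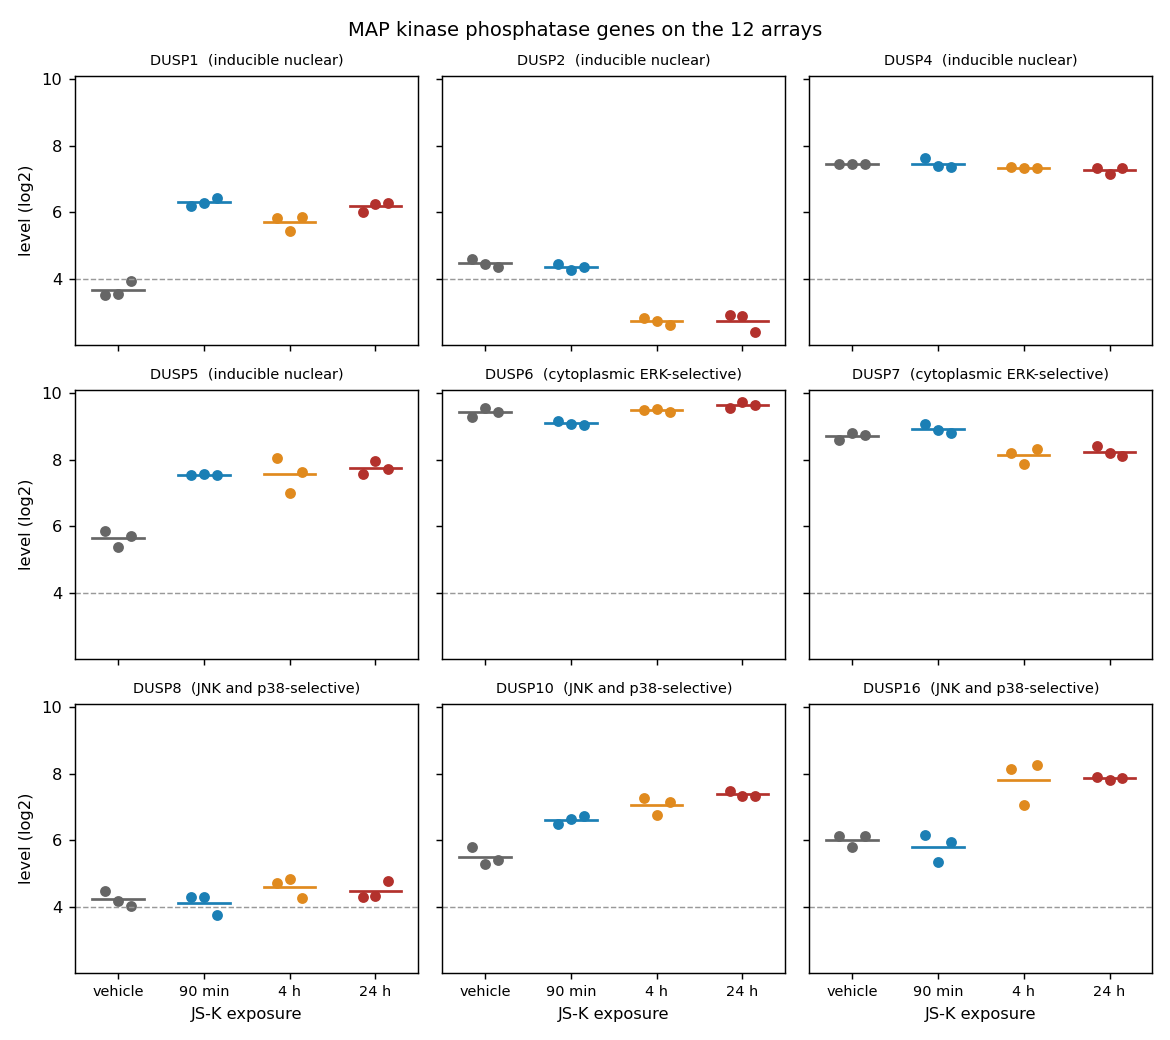
Level (log2) of each DUSP gene on the 12 arrays by group; each point is an array, each bar the mean of 3 arrays, and the dashed line the low-signal mark of 4. All JS-K arrays of DUSP1, DUSP5 and DUSP10 lie above all vehicle arrays, while those of DUSP16 do so at 4 h and 24 h.

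By the probe sets used, DUSP1 and DUSP10 rose early, DUSP16 rose late, DUSP2 fell late and DUSP8 was not called. Promoters of these 5 genes are shown because the genes took different courses. Each is the 250 bases before the RefSeq start (GRCh38.p14), on the minus strand and read 5′ to 3′, so that the last base lies just before the start. Capitals mark matches on either strand. The cAMP response element (CRE) was searched as TGACGTCA, and the core of the antioxidant response element, a site of oxidative stress genes, as TGACNNNGC. The E-box, a site of basic helix-loop-helix factors, was searched as CACGTG. The TATA box, which many inducible genes carry just before their start, was searched as TATAAA, and the CCAAT box by the letters of its name. A match is a description of the letters and does not show that a factor binds there.
DUSP1, chr5:172771196-172771445: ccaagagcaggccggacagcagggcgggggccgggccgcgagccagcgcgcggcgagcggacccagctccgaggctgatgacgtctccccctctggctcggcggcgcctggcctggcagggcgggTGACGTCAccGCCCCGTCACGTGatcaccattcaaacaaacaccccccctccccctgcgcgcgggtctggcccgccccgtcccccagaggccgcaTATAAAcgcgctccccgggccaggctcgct
DUSP10, chr1:221742090-221742339: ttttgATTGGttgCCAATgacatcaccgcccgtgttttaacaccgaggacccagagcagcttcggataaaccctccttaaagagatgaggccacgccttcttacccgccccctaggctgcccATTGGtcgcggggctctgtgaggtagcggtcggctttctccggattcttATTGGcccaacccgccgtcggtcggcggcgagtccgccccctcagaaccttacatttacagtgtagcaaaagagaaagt
DUSP16, chr12:12562864-12563113: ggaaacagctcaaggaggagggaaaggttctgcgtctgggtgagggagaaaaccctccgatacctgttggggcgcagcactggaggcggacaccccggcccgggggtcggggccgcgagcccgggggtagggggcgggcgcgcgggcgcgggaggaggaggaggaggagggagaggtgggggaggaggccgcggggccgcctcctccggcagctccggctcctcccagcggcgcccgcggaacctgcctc
DUSP2, chr2:96145441-96145690: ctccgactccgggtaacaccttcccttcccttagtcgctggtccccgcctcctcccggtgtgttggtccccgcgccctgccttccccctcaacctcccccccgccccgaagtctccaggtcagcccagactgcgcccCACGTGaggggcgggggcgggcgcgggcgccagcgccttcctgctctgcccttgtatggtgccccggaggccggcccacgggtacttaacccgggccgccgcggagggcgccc
DUSP8, chr11:1572272-1572521: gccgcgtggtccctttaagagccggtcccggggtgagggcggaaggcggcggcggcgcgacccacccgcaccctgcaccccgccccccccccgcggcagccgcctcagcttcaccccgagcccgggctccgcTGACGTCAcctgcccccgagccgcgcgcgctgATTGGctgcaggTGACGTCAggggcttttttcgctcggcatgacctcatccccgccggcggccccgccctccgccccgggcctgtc

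The DUSP1 window held a CRE from base −125 to −118 before the start, an antioxidant response element core from −115 to −107 that overlaps an E-box from −108 to −103, and a TATA box from −30 to −25. The DUSP8 window, which lies inside the span annotated for the gene, held the CRE letters at −118 to −111 and again at −74 to −67, and a CCAAT box from −86 to −82. The DUSP2 window held an E-box from −113 to −108. The DUSP10 window held 4 CCAAT boxes, the nearest from −79 to −75, and the DUSP16 window held no match to any motif searched. Of 35116 promoter windows of this length, 1.65% held a CRE, 6.34% an E-box, 10.9% the antioxidant response element core, 10.7% a TATA box and 32.0% a CCAAT box. TGANTCA, an AP-1 site, and the CArG box, a serum response element, were in 6.57% and 1.16% of the windows. Neither was in a window of the 7 DUSP genes searched. The CRE was in the windows of 2 of these 7 genes, DUSP1 and DUSP8. Whether any motif bears on the courses of the DUSP genes was not tested. DUSP5 and DUSP4 were not searched, and no promoter of either is shown.

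The 90 min exposure asks which MKP genes respond first. DUSP1, DUSP5 and DUSP10 rose and DUSP6 fell, so that 4 of 9 genes were called, against 9.64% of all genes. By direction, 3 of 9 were higher (4.03% of all genes) and 1 of 9 was lower (5.62%). The same 3 genes changed at least 2-fold, which 1.40% of all genes did when called. The arrays of vehicle and 90 min did not overlap for 4 of 9 genes, against 26.9% of all genes. The median difference of the 9 genes was 0.01, equal after rounding to that of all genes (0.01). The remaining 5 members lay on both sides of 0, from −0.21 to 0.21. Without regard to sign, the median difference was 0.21 for the 9 genes and 0.05 for all genes.

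DUSP1 (MKP-1, the best-studied nuclear MKP, which acts on p38 and JNK more than on ERK) lies on chromosome 5 (172768100 to 172771200). Its probe set 201041_s_at read 3.52, 3.54 and 3.93 on the vehicle arrays and 6.19, 6.29 and 6.44 after 90 min. At 4 h it read 5.82, 5.45 and 5.86, and at 24 h 6.01, 6.24 and 6.28. Every JS-K array was therefore at least 1 unit above every vehicle array, and the vehicle level was low signal. The rise at 90 min was 2.64 ± 0.17 (6.24-fold, adjusted p = 1.48e-06), rank 13 of 19775 genes by size among rises. It was 2.05 ± 0.17 at 4 h (4.14-fold, adjusted p = 4.05e-06) and 2.52 ± 0.17 at 24 h (5.72-fold, adjusted p = 1.42e-07). Between 90 min and 4 h the level fell by 0.59 ± 0.17 (adjusted p = 0.0436), a call that was lost when any of the 6 arrays concerned was left out (adjusted p up to 0.165). The mean at 24 h was 0.47 ± 0.17 above that at 4 h, which did not pass (adjusted p = 0.0702).

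The DUSP1 rise rested on 1 of 3 probe sets. Probe set 201044_x_at read 4.26 to 4.44 in vehicle and 4.39 to 4.50 at 90 min, a difference of 0.12 ± 0.12 (adjusted p = 0.951 over all probe sets). Its differences of 0.29 ± 0.12 at 4 h and 0.32 ± 0.12 at 24 h did not pass either (adjusted p = 0.0691 and 0.0694). Probe set 226578_s_at lay at 2.01 to 2.07 on every array, under the trp control probe sets (2.53 in vehicle). Which part of the transcript each probe set reads was not used here.

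DUSP5 (a nuclear phosphatase selective for ERK, which it also holds in the nucleus) lies on chromosome 10 (110497910 to 110511530). Its only probe set, 209457_at, read 5.85, 5.36 and 5.71 in vehicle and 7.54, 7.57 and 7.54 at 90 min. The later values were 8.05, 6.99 and 7.65 at 4 h and 7.57, 7.96 and 7.72 at 24 h. No JS-K array overlapped the vehicle arrays, and the 4 h arrays were the most spread. The rise was 1.91 ± 0.22 at 90 min (3.76-fold, adjusted p = 0.000188), 1.92 ± 0.22 at 4 h (3.78-fold, adjusted p = 6.26e-05) and 2.11 ± 0.22 at 24 h (4.32-fold, adjusted p = 7.68e-06). The lowest 4 h value was that of replicate 2, and without it the rise at 4 h was 2.21 ± 0.17. Means at 4 h and 90 min differed by 0.01 ± 0.22 (95% confidence interval −0.48 to 0.50), and no pair of JS-K times was called.

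DUSP10 (MKP-5, selective for JNK and p38) lies on chromosome 1 (221701420 to 221742090) and climbed in steps. Probe set 215501_s_at read 5.79, 5.29 and 5.41 in vehicle, 6.49, 6.64 and 6.72 at 90 min, 7.26, 6.76 and 7.15 at 4 h, and 7.49, 7.34 and 7.34 at 24 h. The arrays of each group lay wholly above those of the group before it. The rise was 1.12 ± 0.16 at 90 min (2.17-fold, adjusted p = 0.000835), 1.56 ± 0.16 at 4 h (2.95-fold, adjusted p = 2.43e-05) and 1.89 ± 0.16 at 24 h (3.72-fold, adjusted p = 1.08e-06). The step from 90 min to 24 h passed (0.77 ± 0.16, adjusted p = 0.00222). The step from 90 min to 4 h did not (0.44 ± 0.16, adjusted p = 0.118), except without replicate 2 at 4 h (0.59 ± 0.15, adjusted p = 0.0323), and neither did that from 4 h to 24 h (0.33 ± 0.16, adjusted p = 0.201). The second probe set, 221563_at, rose at 90 min by 1.49 ± 0.19 from 5.06, at 4 h by 1.76 ± 0.19 and at 24 h by 1.73 ± 0.19, so that both DUSP10 probe sets were called at each time. Its difference between 24 h and 90 min was 0.24 ± 0.19 and did not pass.

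DUSP6 (MKP-3, the main cytoplasmic phosphatase of ERK and a common readout of ERK activity) lies on chromosome 12 (89347235 to 89352501). Probe set 208891_at read 9.28, 9.57 and 9.45 in vehicle and 9.17, 9.09 and 9.06 at 90 min. It read 9.51, 9.52 and 9.44 at 4 h and 9.57, 9.74 and 9.66 at 24 h. The 90 min arrays were the lowest and the 24 h arrays among the highest, within a span of less than 1 unit. The fall at 90 min was small, −0.33 ± 0.08 (adjusted p = 0.0236), and the call was lost without vehicle replicate 2 (−0.26 ± 0.08, adjusted p = 0.105), vehicle replicate 3, or 90 min replicate 2 or 3. It was also lost when arrays were quantile normalized (adjusted p = 0.0523) or array medians subtracted (adjusted p = 0.0520). Its second probe set, 208893_s_at, fell more, by 0.78 ± 0.14 from 8.31 (adjusted p = 0.00622 over all probe sets), while 208892_s_at differed by −0.24 ± 0.16 (adjusted p = 0.712). From 90 min the level of 208891_at rose by 0.38 ± 0.08 to 4 h (adjusted p = 0.00886, and 0.0720 with array medians subtracted) and by 0.55 ± 0.08 to 24 h (adjusted p = 0.000163). At 24 h it was 0.22 ± 0.08 above vehicle, which narrowly did not pass (adjusted p = 0.0519). It did pass without vehicle replicate 2 (0.29 ± 0.08, adjusted p = 0.0210), 24 h replicate 1 (0.26 ± 0.09, adjusted p = 0.0462) or 4 h replicate 2 (0.22 ± 0.08, adjusted p = 0.0277). Probe set 208893_s_at was 0.19 ± 0.14 below vehicle (adjusted p = 0.253).

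**Figure D2:**
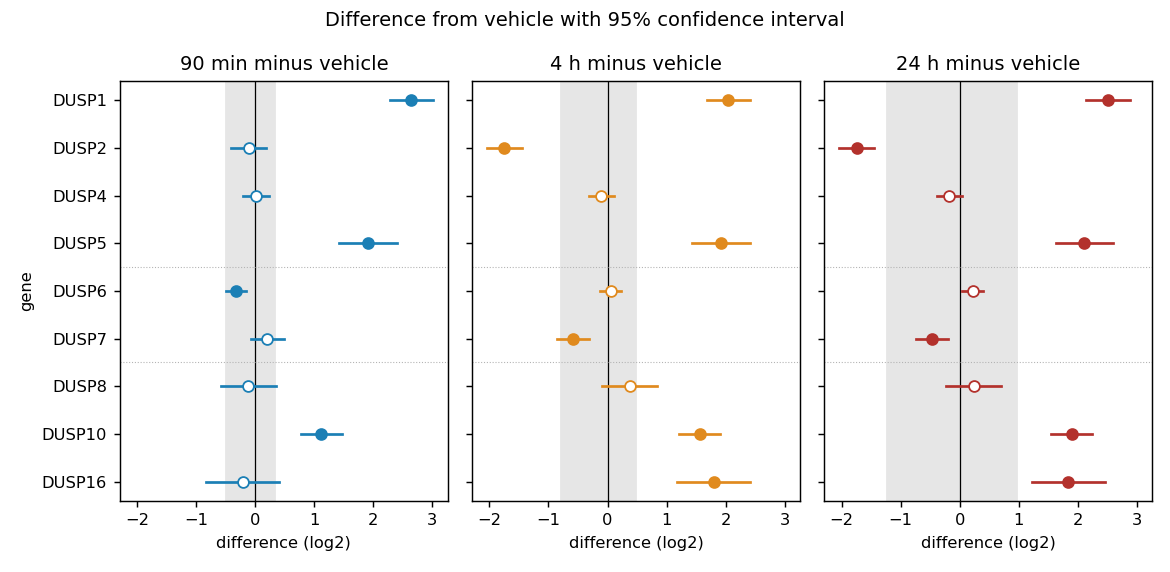
Difference of each gene from vehicle (log2) at 90 min, 4 h and 24 h; points are differences of means of 3 arrays, lines their 95% confidence intervals, filled points genes called, and the grey band the middle 90% of all 19775 genes. DUSP1, DUSP5 and DUSP10 lie right of the band at each time, DUSP16 at 4 h and 24 h, and DUSP2 left of it at 4 h and 24 h.

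At 4 h and 24 h the comparison with vehicle covers the later response. DUSP1, DUSP5, DUSP10 and DUSP16 were higher and DUSP2 and DUSP7 lower at both times, 6 of 9 genes in each case. Large shares of all genes were called too, 40.6% at 4 h (8021 genes, 4735 higher and 3286 lower) and 36.7% at 24 h (7253 genes). These backgrounds were unsteady. Without replicate 2 at 4 h they were 4933 genes at 4 h (2477 higher and 2456 lower) and 14505 at 24 h, without vehicle replicate 1, 2 or 3 they were 3693, 3902 and 3423 at 4 h, and under a constant spread 1507 were higher and 2912 lower at 4 h. The DUSP counts are therefore given beside them and not read against them. The directions split as 4 of 9 higher (23.9% of all genes at 4 h and 17.8% at 24 h) and 2 of 9 lower (16.6% and 18.9%). By size, 5 of 9 genes changed at least 2-fold at each time, against 4.16% of all genes at 4 h and 11.7% at 24 h. Groups did not overlap for 7 of 9 genes at both times, against 70.2% and 82.3% of all genes. The median difference of the 9 genes was 0.38 at 4 h and 0.23 at 24 h, against 0.06 and 0.06 for all genes.

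DUSP16 (MKP-7, selective for JNK and p38) lies on chromosome 12 (12473282 to 12562863) and was the late riser. Probe set 224832_at read 6.13, 5.79 and 6.14 in vehicle and 6.14, 5.33 and 5.95 at 90 min, then 8.14, 7.06 and 8.26 at 4 h and 7.89, 7.82 and 7.87 at 24 h. Vehicle and 90 min arrays overlapped, and every 4 h and 24 h array lay above them. The difference was −0.21 ± 0.29 at 90 min (95% confidence interval −0.84 to 0.41), 1.80 ± 0.29 at 4 h (3.48-fold, adjusted p = 0.000617) and 1.84 ± 0.29 at 24 h (3.58-fold, adjusted p = 0.000202). From 90 min to 4 h it rose by 2.01 ± 0.29 (4.04-fold, adjusted p = 0.000681), rank 10 of 19775 genes among rises of that comparison. Replicate 2 at 4 h was the low value, and without it the rise over vehicle was 2.18 ± 0.21. A second probe set, 224336_s_at, rose from 3.53 in vehicle by 2.82 ± 0.24 at 4 h and 2.65 ± 0.24 at 24 h. The remaining probe sets, 1555399_a_at and 1563505_at, stayed under 4 on every array, and the latter was called with differences of 0.19 ± 0.06 at 4 h and 0.22 ± 0.06 at 24 h.

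DUSP2 (PAC-1, a nuclear phosphatase found mainly in blood cells) lies on chromosome 2 (96143169 to 96145440). Its only probe set, 204794_at, read 4.59, 4.45 and 4.34 in vehicle and 4.45, 4.26 and 4.34 at 90 min, and then 2.81, 2.72 and 2.60 at 4 h and 2.90, 2.86 and 2.38 at 24 h. The earlier arrays lay just above the low-signal mark and the later ones near the trp control probe sets (2.66 at 4 h and 2.63 at 24 h). The difference was −0.11 ± 0.14 at 90 min (adjusted p = 0.930), −1.75 ± 0.14 at 4 h (3.36-fold, adjusted p = 2.46e-06) and −1.75 ± 0.14 at 24 h (adjusted p = 4.88e-07), which are lower bounds of the fall. From 90 min to 4 h it fell by 1.64 ± 0.14 (adjusted p = 1.48e-05).

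DUSP7 (MKP-X, the close cytoplasmic relative of DUSP6) lies on chromosome 3 (52048919 to 52056571). Probe set 213848_at read 8.60, 8.82 and 8.73 in vehicle, 9.07, 8.89 and 8.80 at 90 min, 8.20, 7.88 and 8.33 at 4 h, and 8.40, 8.22 and 8.11 at 24 h. The 4 h and 24 h arrays all lay below those of vehicle and 90 min. The difference was 0.21 ± 0.13 at 90 min (adjusted p = 0.493), −0.58 ± 0.13 at 4 h (adjusted p = 0.00473) and −0.48 ± 0.13 at 24 h (adjusted p = 0.00955). Without replicate 2 at 4 h, the lowest array, the fall at 4 h was −0.45 ± 0.11 (adjusted p = 0.0149). From 90 min the fall was larger, 0.79 ± 0.13 to 4 h (adjusted p = 0.00151). The dimmer probe set 214793_at had its mean under 4 in every group and was not called against vehicle, with −0.52 ± 0.25 at 4 h and −0.61 ± 0.25 at 24 h. From 90 min to 24 h it fell by 0.76 ± 0.25 (adjusted p = 0.0499 over all probe sets).

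DUSP4 (MKP-2, a nuclear phosphatase close to DUSP1) lies on chromosome 8 (29333064 to 29350684) and had 3 probe sets that did not move alike. Probe set 204015_s_at read 7.44, 7.46 and 7.45 in vehicle, 7.64, 7.39 and 7.35 at 90 min, 7.35, 7.34 and 7.35 at 4 h, and 7.33, 7.15 and 7.34 at 24 h. Its differences from vehicle were 0.01 ± 0.10, −0.10 ± 0.10 and −0.17 ± 0.10 in that order (adjusted p = 0.967, 0.388 and 0.158), with a 95% confidence interval of −0.39 to 0.04 at 24 h. By contrast, 204014_at read 5.85, 6.24 and 6.21 in vehicle and 6.96, 6.75 and 6.43 at 24 h. It was called higher at 24 h by 0.61 ± 0.15 (adjusted p = 0.0083 over all probe sets), as was the dim 226034_at by 0.54 ± 0.14 (adjusted p = 0.0151). The direction of DUSP4 at 24 h therefore depended on the probe set.

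DUSP8 (selective for JNK and p38, and best known from brain) lies on chromosome 11 (1554051 to 1572848). Probe set 238594_x_at read 4.48, 4.16 and 4.02 in vehicle, 4.29, 4.29 and 3.74 at 90 min, 4.71, 4.82 and 4.26 at 4 h, and 4.30, 4.30 and 4.76 at 24 h. All were close to the low-signal mark, and the arrays of each JS-K time overlapped those of vehicle. The differences were −0.12 ± 0.21, 0.38 ± 0.21 and 0.23 ± 0.21 (adjusted p = 0.930, 0.147 and 0.349), with 95% confidence intervals of −0.58 to 0.35, −0.09 to 0.84 and −0.23 to 0.70. The dimmer 206374_at read 3.16, 3.23 and 3.22 in vehicle and 5.72, 3.83 and 3.61 at 24 h, so that replicate 1 at 24 h stood alone. The difference of 1.18 ± 0.40 at 24 h (adjusted p = 0.0488 over all probe sets) became 0.52 ± 0.10 (adjusted p = 0.00278) when that array was left out of the fit. With the mean of both probe sets, DUSP8 was called higher at 24 h, by 0.71 ± 0.20 over vehicle (adjusted p = 0.0172) and 0.74 ± 0.20 over 90 min (adjusted p = 0.0148), so its call depended on the probe set.

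**Figure D3:**
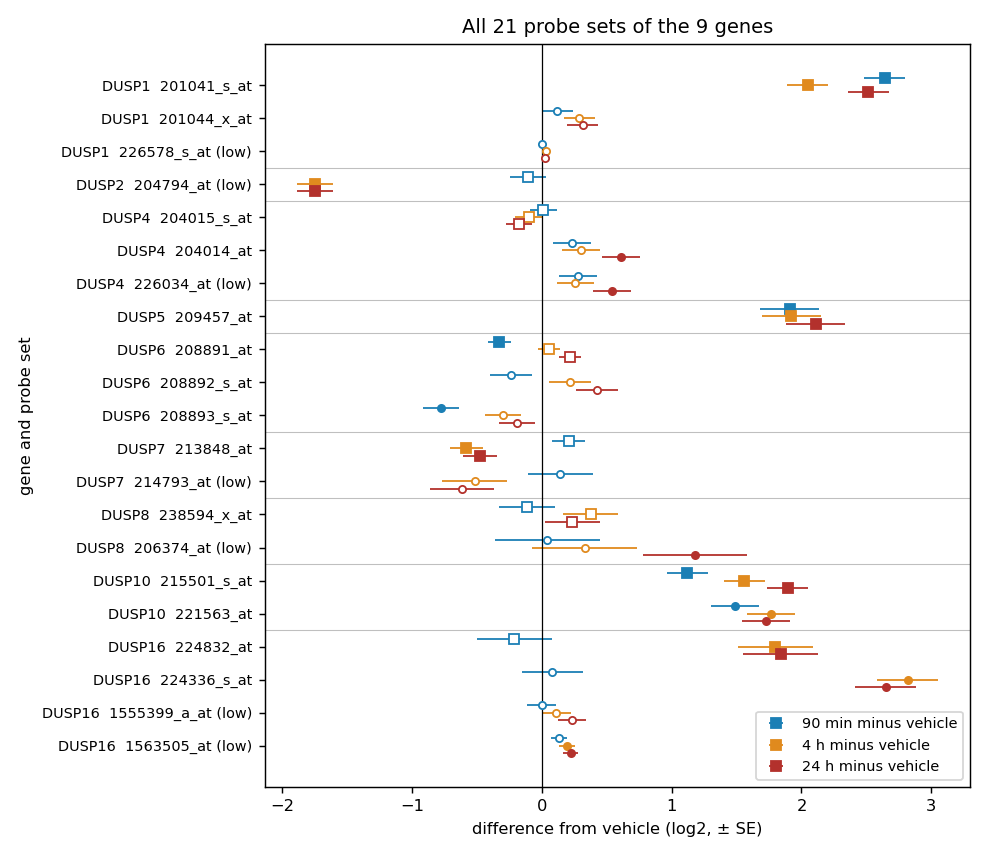
Difference from vehicle (log2, ± SE) of all 21 probe sets of the 9 genes at 90 min, 4 h and 24 h; squares are the probe sets that stand for the genes, circles the others, filled symbols are called, and "low" marks a mean under 4. The DUSP10 probe sets lie together, whereas 201041_s_at of DUSP1 lies far to the right of the gene's other probe sets.

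Of the 21 probe sets, 6 were called at 90 min, 9 at 4 h and 12 at 24 h, against 5.59%, 25.0% and 27.0% of all 54675 probe sets. The 21 include the 9 that stand for the genes, and of the other 12, 2 were called at 90 min, 3 at 4 h and 6 at 24 h, with 6 of these 12 under 4 on average. Probe sets of the forms _s_at and _x_at may also take up related transcripts, and probe sets of 1 gene share its RNA and are not replicates.

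Between JS-K times, 5 of 9 genes were called from 90 min to 4 h, against 10.6% of all genes. DUSP6 and DUSP16 rose (2 of 9, with 3.33% of all genes higher) and DUSP1, DUSP2 and DUSP7 fell (3 of 9, with 7.25% lower). From 90 min to 24 h, 5 of 9 were called, against 30.3% of all genes, with DUSP6, DUSP10 and DUSP16 higher (14.6% of all genes) and DUSP2 and DUSP7 lower (15.7%). Arrays did not overlap for 7 of 9 genes in both of these comparisons, against 51.7% and 79.0% of all genes. From 4 h to 24 h limma called 0 of 9, against 23.5% of all genes (12.8% higher and 10.7% lower), and 1 gene, DUSP1, had an unadjusted p under 0.05. Arrays of these times did not overlap for 4 of 9 genes, against 28.4% of all genes. The calls between JS-K times therefore all involved the 90 min group.

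In the order of levels within each gene, vehicle was the lowest group for DUSP1, DUSP5 and DUSP10, and the highest for DUSP2. For DUSP1 the order was 90 min, 24 h, 4 h and vehicle, and only the last step passed the test (adjusted p = 4.05e-06). For DUSP5 it was 24 h, 4 h, 90 min and vehicle, again with only the last step past the test. For DUSP10 the order was the same and the last step likewise. For DUSP2 the order was vehicle, 90 min, 24 h and 4 h, and for DUSP16 24 h, 4 h, vehicle and 90 min, with the middle step passing in each. For DUSP7 it was 90 min, vehicle, 24 h and 4 h, again with the middle step passing (adjusted p = 0.00955), and for DUSP6 24 h, 4 h, vehicle and 90 min, with the last step passing. No step passed for DUSP4 or DUSP8.

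By subfamily, the nuclear MKPs did not share 1 course. DUSP1 and DUSP5 rose early, DUSP2 fell late and the chosen DUSP4 probe set was not called. By the probe sets used, the cytoplasmic pair moved apart after 90 min, as DUSP6 rose and DUSP7 fell between 90 min and 4 h. Their other probe sets moved the same way between these times but were not called (limma adjusted p = 0.0748 to 0.151). Of the JNK and p38 group, DUSP10 rose early, DUSP16 late and the chosen DUSP8 probe set was not called. No difference between genes was tested.

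Other genes of the MAP kinase pathway, in 6 lists with 57 measured genes, were mostly not called at 90 min. Of the 57, 7 were called at 90 min (12.3%), 17 at 4 h (29.8%) and 24 at 24 h (42.1%), against 9.64%, 40.6% and 36.7% of all genes. Their median difference was 0.01, 0.05 and 0.16, against 0.01, 0.06 and 0.06 for all genes.

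MKPs act on ERK, JNK and p38, and the measured kinase genes of these arms come first. The shares of all genes called, 9.64% at 90 min, 40.6% at 4 h and 36.7% at 24 h, stand beside the counts of each list here and below. Of 6 measured ERK arm kinases (11 listed), 1 was called at 90 min, ARAF, a RAF kinase gene, at 0.35 ± 0.09 (adjusted p = 0.0323). At 24 h 3 of 6 were higher: MAP2K1, which encodes the ERK kinase MEK1, by 0.82 ± 0.07, HRAS by 0.66 ± 0.19 and the scaffold gene KSR1 by 0.65 ± 0.21. At 4 h limma called none of the 6, and none had an unadjusted p under 0.05. Of 13 JNK and p38 arm kinases (16 listed), limma called none at 90 min, where 2 had an unadjusted p under 0.05. MAP3K1, an upstream kinase of JNK, fell by 0.82 ± 0.13 at 4 h and by 0.82 ± 0.13 at 24 h, and MAP3K4 fell by 0.54 ± 0.12 and 1.40 ± 0.12. MAPK12, the gamma isoform of p38, was lower at 4 h (−0.99 ± 0.29, adjusted p = 0.028), and MAP3K11 was higher at 24 h (0.87 ± 0.26). Outside the naming rule, MAPK9, which encodes a JNK, was also called at 24 h (0.25 ± 0.09). In the ERK5 arm, MAP2K5 was lower at 90 min (−0.61 ± 0.14) and MAPK7, ERK5 itself, higher at 4 h (0.76 ± 0.25).

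**Figure D4:**
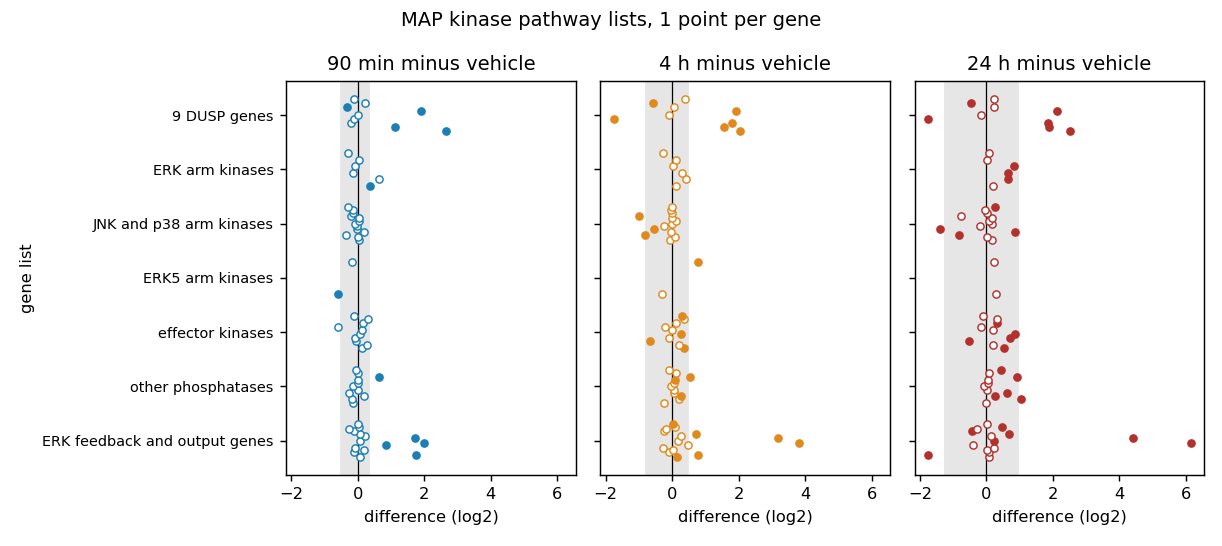
Difference from vehicle (log2) of the 9 DUSP genes and of each measured gene in 6 MAP kinase pathway lists at 90 min, 4 h and 24 h; each point is a gene, filled where called, and the grey band holds the middle 90% of all genes. Kinase genes lie mostly inside the band at 90 min, and the points farthest right at 24 h are IER3 and PHLDA1.

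Of 10 effector kinases, limma called none at 90 min (none with an unadjusted p under 0.05), 4 at 4 h and 5 at 24 h. MKNK2, which phosphorylates the translation factor eIF4E, was higher by 0.87 ± 0.07 at 24 h and its relative MKNK1 by 0.72 ± 0.10. MAPKAPK2, the main kinase below p38, was higher by 0.35 ± 0.11 at 4 h and 0.54 ± 0.11 at 24 h, and MAPKAPK5 fell by 0.68 ± 0.17 and 0.52 ± 0.17. The remaining calls were MKNK2 (0.25 ± 0.07) and RPS6KA5 (0.29 ± 0.10) at 4 h and RPS6KA3 (0.32 ± 0.11) at 24 h, the RPS6KA genes named after their values were seen. Of 11 other phosphatases, 1 was higher at 90 min, 3 at 4 h and 5 at 24 h, with none called lower. PTPN7, a tyrosine phosphatase of blood cells that acts on ERK and p38, rose at all 3 times, by 0.64 ± 0.10, 0.53 ± 0.10 and 0.93 ± 0.10. DUSP18 (1.04 ± 0.33), DUSP22 (0.62 ± 0.08) and the pseudophosphatase gene STYX (0.44 ± 0.15) were called higher at 24 h and not at 4 h or 90 min. DUSP19 (2.96 in vehicle) and PTPN5 (2.24 in vehicle), the other calls of this list, were low signal.

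Among the 6 lists, the genes known as outputs or feedback inhibitors of ERK held the largest differences from vehicle. Of 15 measured, 4 were higher at 90 min, 6 at 4 h and 5 at 24 h, and 2 were lower at 24 h. IER3, an early response gene, rose by 1.98 ± 0.22, 3.81 ± 0.22 and 6.16 ± 0.22 from a vehicle level of 2.65, and PHLDA1 by 1.71 ± 0.19, 3.18 ± 0.19 and 4.41 ± 0.19 from 3.08. EGR1, an early transcription factor, rose by 1.75 ± 0.26 at 90 min and 0.77 ± 0.26 at 4 h and was 1.76 ± 0.26 below vehicle at 24 h. FOSL1, an AP-1 subunit, was higher at 90 min (0.84 ± 0.21). Of the Sprouty and SPRED genes, inhibitors of RAS and ERK signalling, SPRED2 was higher at 4 h (0.72 ± 0.11) and 24 h (0.66 ± 0.11), SPRY2 higher at 24 h (0.47 ± 0.09) and SPRED3 lower at 24 h (−0.44 ± 0.14), named after their values were seen. EGR1 was thus below vehicle at 24 h, a time at which DUSP1 and DUSP5 were above it.

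Among 2724 genes with a highest group mean of at least 4 and a span of at least 1 between group means, those most like each DUSP gene over the 12 arrays were listed by Pearson r, as a description. The 12 points are 4 groups of 3 arrays, so r mostly reflects the group means. DUSP1 was most like PRDM1 (r = 0.983), a transcriptional repressor, and JUN (r = 0.973), an AP-1 subunit. DUSP5 was most like S100A8 (r = 0.980) and BTG1 (r = 0.975), and DUSP10 like ATF3 (r = 0.979), a stress-induced transcription factor, and ITPRIP (r = 0.979). JUN, for example, averaged 7.90 in vehicle and 11.29, 10.99 and 11.05 at the 3 times. ATF3 went from 3.10 to 6.33, 7.03 and 8.08, so that its means rose at each time, as those of DUSP10 did. The ATF3 steps from 90 min to 4 h and from 4 h to 24 h were called, while those of DUSP10 were not.

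The late genes had other partners. DUSP16 was most like HEG1 (r = 0.958) and FBXO8 (r = 0.952). DUSP2 was most like GEMIN6 (r = 0.982), a component of the SMN complex, and NIFK (r = 0.979), a nucleolar protein gene. DUSP7 was most like TWNK (r = 0.952), the mitochondrial DNA helicase, and MRPL46 (r = 0.950), a mitochondrial ribosomal protein. GEMIN6 averaged 9.62 and 9.33 in vehicle and at 90 min and 8.02 and 8.01 later, the same late step as DUSP2. DUSP6 had the least close matches, TUBA1A (r = 0.891) and CAMK2D (r = 0.889), both lowest at 90 min.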

How the data were processed

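RNA of U937 cells was measured on 12 arrays with 1 colour. The deposited values are on the log2 scale, 1 per probe set and array, made by the authors with GCRMA in Affymetrix Expression Console, per the submitters' processing notes, which give no version. GCRMA corrects background from probe sequence, normalizes quantiles and summarizes probes, so dim probe sets are compressed towards a floor. Per the labels' protocols, RNA was labelled from random hexamers with a whole-transcript kit, whereas the probe set names are those of a 3' array, and how these fit together is not stated. The values were used as deposited.

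The 54675 probe sets divide into 41097 that carry 1 gene symbol in the platform annotation, 1801 that carry more than 1 and 11777 without any. RefSeq (GRCh38.p14) held the gene identifier of 41043 of the first kind. The probe set with the highest mean stood for each of 19775 genes, and no filter on level was set. All 12 arrays entered 1 linear model (limma 3.58.1, run in R 4.3.3), whose moderated errors used a trend on the mean and 8 residual and 3.97 prior degrees of freedom, with 6 comparisons of 2 groups and a moderated F test. P-values were adjusted by Benjamini-Hochberg over the genes of each comparison, and single probe sets were tested in a fit of all 54675. Confidence intervals are 95%. The procedure was tested on simulated data. Promoter windows were searched on both strands. Figures used matplotlib 3.10.9.

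The genes are defined by symbol and not by a measured value, but they, the pathway lists and the tests were chosen with earlier results of these data known. The DUSP genes were all named. From each pathway list, up to 4 genes called against vehicle with the largest difference were named, and for each called DUSP gene the 2 genes of highest Pearson r. The myeloid, T cell, B cell, erythroid, epithelial and fibroblast marker lists held 10, 4, 4, 4, 4 and 3 genes. Of the 3 fibroblast markers, COL1A1 alone had a mean above 4 (4.74 to 5.80 on the 12 arrays).

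Replicate numbers are shared across groups. In the 90 min and vehicle arrays, deviations of same-numbered arrays from their group means correlated at 0.22, 0.23 and 0.13. These values hint that the numbers pair the arrays but do not establish it, and the labels state no pairing. The replicate block changed no call of a DUSP gene in that comparison. In all 18 pairs of the 6 comparisons the correlation ranged from −0.13 to 0.37 and exceeded 0.1 in 7. Of the 12 arrays, 8 were on average closest to the arrays of their own number in the other groups.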

Additional observations from a re-analysis of the deposited data

Results flagged for a closer look

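The poly-A spike probe sets, which no comparison of the DUSP genes uses, carried signal in 2 of the JS-K groups above the level of the vehicle arrays. Their mean was 7.02 at 4 h (6.85 to 7.13 on 3 arrays) and 8.47 at 24 h (8.42 to 8.52), against 2.99 to 3.07 on the vehicle arrays and 3.03 to 3.15 at 90 min. The DUSP differences at 4 h and 24 h share this split of the arrays, and its part in them cannot be told apart from JS-K. By the probe sets used, DUSP1, DUSP5 and DUSP10 were called higher at 90 min, where the spike levels were about those of the vehicle arrays. The part of the spike split in their 4 h and 24 h differences was not tested.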

How the results depend on the processing

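By the probe set used, called DUSP differences kept their direction under every setting tried and with each array left out. By other probe sets, the called DUSP1 fall from 90 min to 4 h turned sign. The other differences that turned sign were not called by the probe set used. With the mean of probe sets, DUSP4 gave 0.15 at 4 h, 0.32 at 24 h (adjusted p = 0.00832), 0.17 for 24 h minus 4 h and 0.15 for 24 h minus 90 min, DUSP6 −0.0098 at 4 h, DUSP8 0.35 for 24 h minus 4 h (and calls of 0.71 at 24 h and 0.74 for 24 h minus 90 min) and DUSP1 0.029 for 24 h minus 90 min. With quantile normalization DUSP4 gave 0.081 at 4 h and 0.0085 for 4 h minus 90 min, and DUSP16 −0.023 for 24 h minus 4 h. With array medians subtracted (group means 2.88 in vehicle and 2.98 at 4 h), DUSP6 gave −0.047 at 4 h and DUSP5 −0.083 for 4 h minus 90 min. With array weights, whose estimation stopped before it converged, DUSP2 gave 0.037 and DUSP8 0.19 at 90 min, and DUSP2 −0.061, DUSP5 −0.27 and DUSP16 −0.28 for 24 h minus 4 h.

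Other probe sets turned sign as follows. For 4 h minus 90 min, 24 h minus 4 h and 24 h minus 90 min, DUSP1 201044_x_at gave 0.17 and 0.20 (first and last) and 226578_s_at 0.027, −0.010 and 0.017. DUSP4 204014_at gave 0.30 at 4 h and 0.61 at 24 h, and 0.071, 0.31 and 0.38 between times, and 226034_at gave 0.26 at 4 h, 0.54 at 24 h and, for 24 h minus 4 h and 24 h minus 90 min, 0.28 and 0.26. DUSP6 208893_s_at gave −0.30 at 4 h and −0.19 at 24 h. For 24 h minus 4 h, DUSP7 214793_at gave −0.10, DUSP8 206374_at 0.85, DUSP10 221563_at −0.040 and DUSP16 224336_s_at −0.17. At 90 min DUSP8 206374_at gave 0.042, DUSP16 224336_s_at 0.081 and 1563505_at 0.13.

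With 1 array left out, ranges that cross 0 were −0.077 to 0.067 (DUSP4), −0.22 to 0.068 (DUSP8) and −0.38 to 0.025 (DUSP16) at 90 min, −0.020 to 0.13 (DUSP6) at 4 h, −0.23 to 0.30 (DUSP5) for 4 h minus 90 min, and −0.092 to 0.17 (DUSP2), −0.10 to 0.43 (DUSP5), −0.021 to 0.20 (DUSP7) and −0.34 to 0.26 (DUSP16) for 24 h minus 4 h. DUSP6 at 24 h passed under a constant spread (adjusted p = 0.0404), without the dimmest genes (0.0388), with quantile normalization (0.0209), with array weights (0.00376), with the replicate block (0.0473), and without vehicle replicate 2 (0.0210), 24 h replicate 1 (0.0462) or 4 h replicate 2 (0.0277). That block gave 7 called DUSP genes at 24 h against 6, and changed no other DUSP call.

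From 24 h minus 4 h, DUSP1 was the 1 gene called under a constant spread, without the dimmest genes and with quantile normalization, and array weights called 2. Array weights called 9 DUSP genes for 4 h minus 90 min. Over all genes, called at 4 h were 8021, against 4419 (constant spread, 1507 higher and 2912 lower), 4966 (dimmest left out, 1741 and 3225), 4872 (quantile, 2289 and 2583), 3969 (medians, 849 and 3120), 3185 (6 arrays, 1018 and 2167) and 16126 (weights), where the main split was 4735 higher and 3286 lower. At 90 min 1907 became 1050 (medians) or 9527 (weights), at 24 h 7253 became 16172 (weights) or 14569 (6 arrays), for 4 h minus 90 min 2092 became 10465 (weights) or 1227 (6 arrays), for 24 h minus 4 h 4649 became 7898 (weights) and for 24 h minus 90 min 5996 became 12389 (weights). Median subtraction split calls as 2239 higher and 4139 lower at 24 h (3518 and 3735 in the main setting), 312 and 1261 for 4 h minus 90 min (658 and 1434) and 2077 and 3373 for 24 h minus 90 min (2889 and 3107), and quantile normalization split 4 h minus 90 min as 1083 and 1250. With 1 array left out the counts ranged from 1200 to 2612 at 90 min, 3423 to 11578 at 4 h (4933 without replicate 2 of 4 h), 5910 to 14505 at 24 h, 1382 to 2481 for 4 h minus 90 min and 5125 to 11630 for 24 h minus 90 min. The highest at 90 min, 24 h and 24 h minus 90 min came without replicate 2 of 4 h, a setting added after seeing the data.

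Of the 57 pathway genes, called at 4 h were 9 (medians), 43 (weights) and 8 (6 arrays) against 17, for 4 h minus 90 min 5, 33 and 4 against 10, and with weights 30 at 90 min, 39 at 24 h, 30 for 24 h minus 4 h and 34 for 24 h minus 90 min. With 1 array left out they ranged from 4 to 10 at 90 min, 9 to 21 at 4 h, 15 to 34 at 24 h and 3 to 10 for 4 h minus 90 min. The cause of these changes was not tested. Dim probe sets limit what can be read, since DUSP1 in vehicle, DUSP2 at 4 h and 24 h, and DUSP8 lay near the floor, and 3 arrays a group limit the precision.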
